A study of Mus musculus with 12 samples.

Results

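Ramp2 and 4 other genes of vascular signalling, Efnb2, Pdgfb, Krit1 and Ccm2, were followed across 12 RNA sequencing libraries of mouse bone marrow mesenchymal stem cells (BMSCs, the plastic-adherent stromal cells of marrow). The genes were selected on measured values: Ramp2 was picked for its large rise between the groups, and the other 4 were picked by function to stand beside it. They are 5 of the 658 genes in the table analysed here, and all 5 were among the 512 that passed a filter on low expression (6 or more libraries with 1 TPM or more). TPM, the number of transcripts of a gene in a set total of transcripts, is a level per transcript length and per library, so it can be compared between genes. For Ramp2 the comparison of the groups is a description with no test, since that comparison chose it.

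All cells were labelled WT and were cultured for osteogenic differentiation in medium with ascorbic acid (50 µM), β-glycerophosphate (10 mM) and dexamethasone (100 nM), so both groups received a glucocorticoid. In 1 group, 6 libraries, α-asarone was added (spelled α-Asaronel in the sample labels), a phenylpropanoid of Acorus oil. The other 6 libraries are labelled control, and no vehicle is named. The basal medium also held penicillin-streptomycin (1%) and fetal bovine serum (15%), and libraries were made from poly(A) RNA. The sources used here do not give the dose, the time of exposure or the animals' age and sex. They also do not say whether the libraries of a group came from separate cultures or animals, so each p-value speaks to the spread among libraries, which may be technical.

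The genes act at different steps of vessel formation. Receptor activity-modifying protein 2, the product of Ramp2, is a single-pass membrane protein that accompanies the calcitonin receptor-like receptor to the cell surface and makes it a receptor for adrenomedullin, a vasodilator peptide needed for blood and lymph vessels. Ephrin-B2 (Efnb2) is a membrane-bound ligand of Eph receptors that marks arterial endothelium and also acts between osteoclasts and osteoblasts, and Pdgfb encodes the growth factor chain that draws mural cells to new vessels. Krit1 and Ccm2 encode scaffold proteins of the cerebral cavernous malformation (CCM) complex, which in endothelium restrains a kinase cascade through MEK5 and ERK5 (Mapk7) to the Klf2 and Klf4 genes.

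Ramp2 (ENSMUSG00000001240) lies on the plus strand of chromosome 11, from 101246028 to 101259546 on GRCm38, and its annotated span runs into Vps25, a gene of the ESCRT-II endosomal sorting complex on the same strand (101253707 to 101259549). Of 8 Ramp2 transcripts in GENCODE M21, 7 share no exonic base with Vps25 and end 5456 bases or more before it. The exception is Ramp2-203, annotated as a target of nonsense-mediated decay. It joins 2 exons of Ramp2 to an exon that begins shortly before Vps25 and runs into it, and then to further exons of Vps25, and 1103 of its 1478 bases (74.6%) lie in Vps25 exons. The sequences at the branch point are printed because they separate a read of the receptor partner from a read of the fusion. Lower case marks the last 30 bases of exon 2 (chr11:101247115-101247144), which both transcripts hold. Capitals mark the first 30 bases of the next exon. It is at chr11:101247586-101247615 in Ramp2-204, the longest transcript annotated as protein coding, and at chr11:101253604-101253633 in Ramp2-203.
Ramp2-204: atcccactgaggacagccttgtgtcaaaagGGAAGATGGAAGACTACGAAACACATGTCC
Ramp2-203: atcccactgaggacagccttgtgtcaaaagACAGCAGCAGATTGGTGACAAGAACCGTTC

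All 60 bases are annotated as coding in each transcript.

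**Figure D1:**
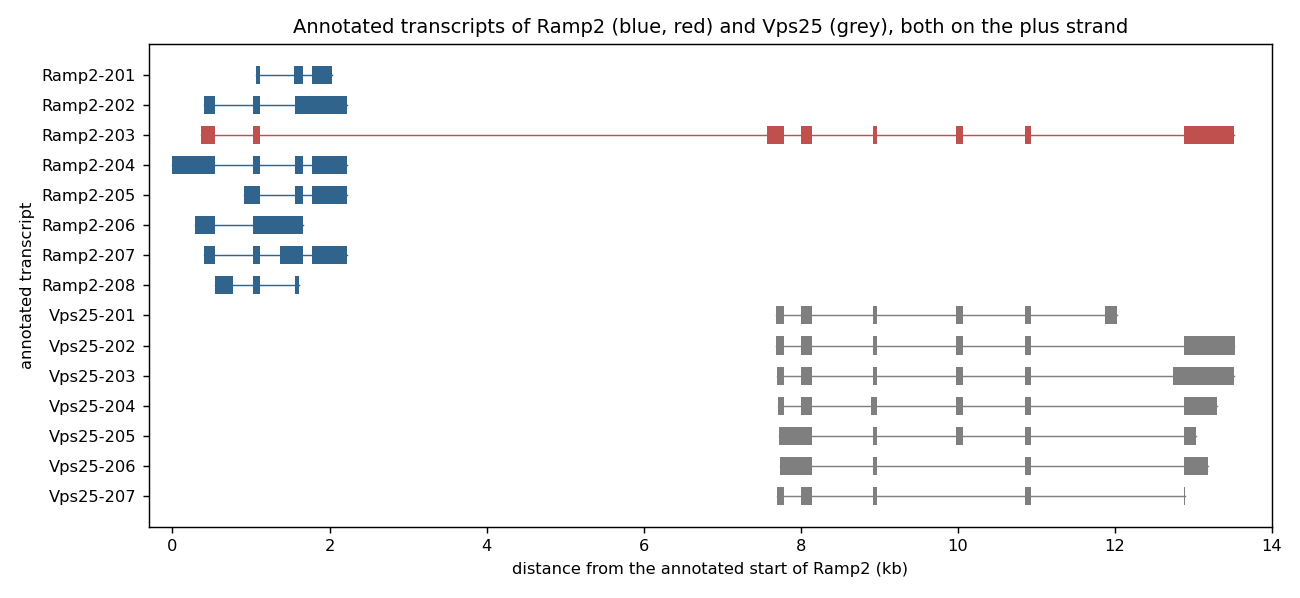
Annotated exons (boxes) of the 8 Ramp2 transcripts and the 7 Vps25 transcripts in GENCODE M21, by distance in kilobases from the annotated start of Ramp2. Ramp2-203 (red) is the only Ramp2 transcript with exons in Vps25 (grey), and the other 7 (blue) end before Vps25 begins.

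Ramp2 was higher in every α-asarone library than in any control. With α-asarone its level ran from 33.6 to 41.2 TPM with a median of 37.0, and in controls from 9.33 to 15.04 TPM with a median of 10.9. The groups were far apart, and the highest control, replicate 5, had less than any treated library, of which replicate 4 was lowest. The treated mean was 37.3 ± 2.98 TPM (SD, n = 6) and the control mean 11.8 ± 2.31 TPM (SD, n = 6). The estimated counts behind these levels were 303 to 429 in treated and 88.4 to 163 in control libraries. The fold change fitted by edgeR to the counts was 3.04, with a 95% interval of 1.42 to 1.78 for its log2 value of 1.60, the largest rise of the 512 genes. Controls varied more around their mean than treated libraries did, with a coefficient of variation of 19.6% against 7.99%, where counting error alone gives 9.03% and 5.24%.

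**Figure D2:**
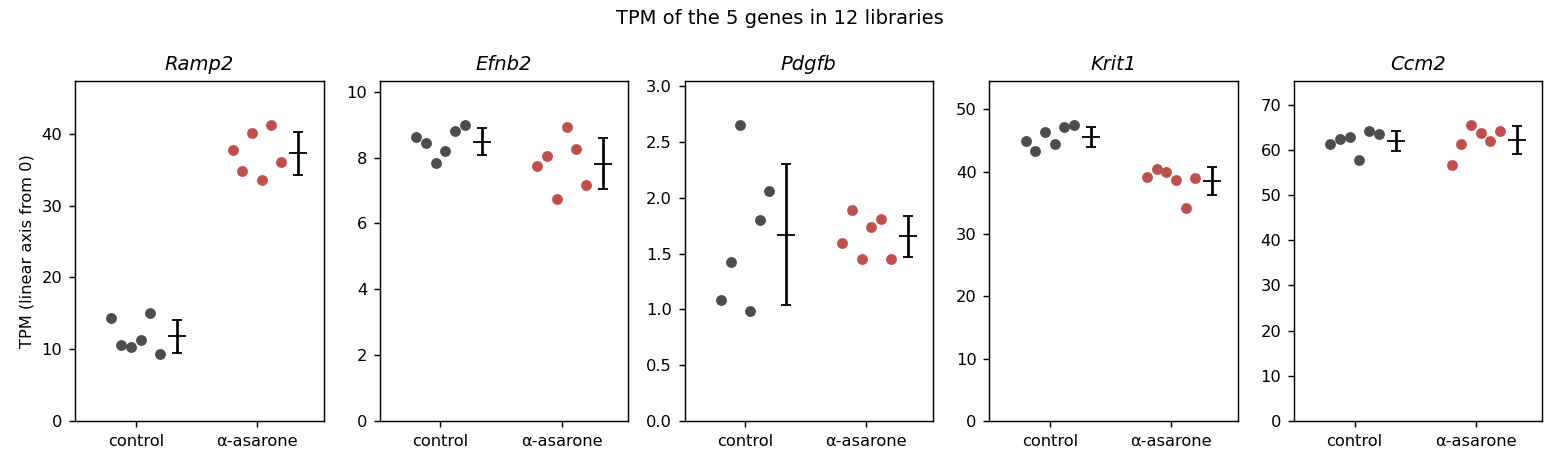
TPM (linear axes from 0, a scale for each gene) of the 5 genes in the 6 control and 6 α-asarone libraries, in replicate order, with mean and SD at the right of each group. The groups are apart for Ramp2 (9.33 to 15.04 against 33.6 to 41.2 TPM) and for Krit1 (43.4 to 47.4 against 34.2 to 40.4 TPM) and overlap for the other 3 genes.

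The table gives 2 readings that bear on reads shared with Vps25. Vps25 itself was not analysed here. The estimated count of Ramp2 was more than 1e-06 from a whole number in 9 of 12 libraries (dividing reads among overlapping features gives such values), while the counts of Efnb2, Pdgfb, Krit1 and Ccm2 were whole in all 12. In 3 libraries the count of Ramp2 was whole. It was 388 with α-asarone (34.9 TPM, replicate 2), 116 in control replicate 3 (10.3 TPM) and 98 in control replicate 6 (9.33 TPM). Whether these whole counts were free of reads from Vps25 was not tested.

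The second reading is the ratio of count to TPM. It was fitted on genes with a single annotated transcript, leaving out any under 600 bases or more than 5% off the fitted line. In the 16 of 17 genes kept, the ratio followed the spliced length in GENCODE M21 exactly (r = 1.00 in each library, over the kept genes only). The ratio thus gives the mean length of the transcripts to which a gene's level was assigned. For Ramp2 this mean was 1159 to 1211 bases in controls (1177 ± 18.6, SD, n = 6). In treated libraries it was 1089 to 1179 bases (1131 ± 40.1, SD, n = 6), so the ranges overlapped. Ramp2-204 has 1178 bases and the fusion Ramp2-203 has 1478, and the other 6 transcripts are shorter than Ramp2-204. Most libraries therefore lay at or below the length of Ramp2-204. A mean near that length does not show that Ramp2-204 was the main form expressed. Treated replicates 1, 3 and 5 lay lowest, at 1089, 1095 and 1102 bases, below every control.

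A mean above 1178 bases requires some weight on the fusion, if the authors' annotation held the same transcripts. It was above in 3 libraries. In control replicate 2 the mean of 1210.8 bases corresponds to at least 10.9% of the gene's TPM on Ramp2-203, or 1.16 TPM, and in control replicate 4 to at least 2.2%, or 0.247 TPM. In α-asarone replicate 4 the least share was 0.267%. The length alone does not fix the share, since short transcripts can offset the fusion, and the highest share it allows is 64.6% to 75.7% over the libraries. With each library's own transcript lengths entered as an offset, the log2 fold change of Ramp2 was 1.66 ± 0.10 (SE) in place of 1.60 ± 0.09 (SE). How many Ramp2 reads arose from Vps25 was not tested.

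**Figure D3:**
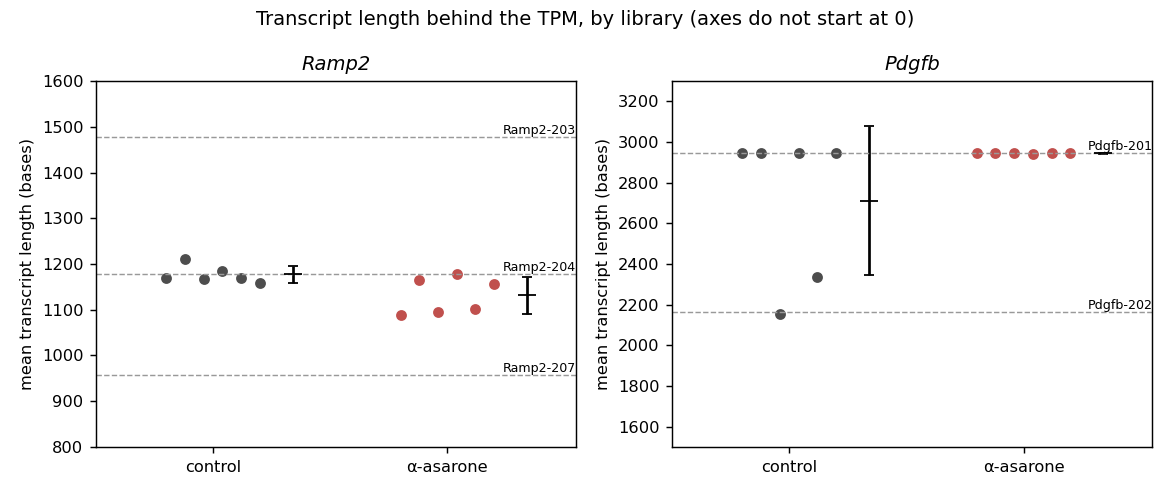
Mean transcript length in bases behind the TPM of Ramp2 and Pdgfb in each library (points, in replicate order, with mean and SD at the right of each group; axes do not start at 0). Dashed lines are annotated spliced lengths. Ramp2 lies at 1089 to 1211 bases, where Ramp2-204 has 1178 and Ramp2-203 has 1478. Such a mean does not fix the share of Ramp2-203, since shorter transcripts can offset it. Pdgfb leaves the 2944 bases of Pdgfb-201 in control replicates 3 and 5.

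Around Ramp2, the table held 10 genes within 1 Mb, a window chosen after the values were seen. Of the 8 that passed the filter, 2 were higher with α-asarone, 2 were lower and 4 did not pass the edgeR test. Over all 512 genes 30.3% were called, 66 higher and 89 lower, and a regional effect around Ramp2 was not tested. The closest, Coasy, a coenzyme A synthesis gene 159409 bases away, was at 22.5 ± 1.47 TPM against 21.9 ± 1.69 TPM in controls (SD, n = 6 each; edgeR adjusted p = 0.734). The homeobox gene Meox1, 617964 bases away, rose by 1.18 on the log2 scale (edgeR adjusted p = 1.32e-09), and the lysosomal enzyme gene Naglu rose by 0.10 (edgeR adjusted p = 0.0141). The junction protein gene Jup and the collagen chaperone gene Fkbp10 fell.

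Krit1, which encodes the CCM protein that binds the small GTPase Rap1, fell. It lies on chromosome 5, from 3803184 to 3845564 on the plus strand (ENSMUSG00000000600). Its level with α-asarone was 34.2 to 40.4 TPM with a median of 39.0, and in controls 43.4 to 47.4 TPM with a median of 45.6. Every treated library was below every control. The treated mean was 38.5 ± 2.24 TPM and the control mean 45.6 ± 1.63 TPM (SD, n = 6 each), and the change fitted by edgeR was −14.5% (95% interval −18.9% to −9.92%, adjusted p = 1.72e-05 over the 512 genes). The lowest treated value, 34.2 TPM in replicate 5, stood apart from the other 5, which were between 38.6 and 40.4 TPM, and without that library the log2 fold change was −0.198 in place of −0.226 (edgeR adjusted p = 6.14e-05). The mean transcript length behind Krit1 was 2915 to 3028 bases in treated and 2940 to 2988 bases in control libraries. The ranges overlapped only through treated replicate 4, at 2915 bases. All other treated libraries, at 3010 to 3028 bases, lay above every control. With transcript lengths as an offset the log2 fold change was −0.243 in place of −0.226 (edgeR adjusted p = 9.99e-05). Krit1 overlaps the next gene, Lrrd1, on the same strand, but none of its exonic bases lies in an exon of Lrrd1.

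Of the 4 genes chosen by function, Krit1 was the 1 called. By the same rule, an edgeR adjusted p under 0.05, 155 of 512 genes (30.3%) were called in the whole table, 66 higher and 89 (17.4%) lower. With library totals over the table in place of TMM scaling factors the calls were 127 higher and 62 lower, and the log2 fold change of Krit1 was −0.183 (edgeR adjusted p = 0.000394). TPM values of the groups did not overlap for 73 of 512 genes (14.3%). Krit1 was the 1 gene of these 4 with no such overlap. A share of 1 in 4 is near the 30.3% of all genes and is not a result about these genes.

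Ccm2, whose product binds that of Krit1, was not called, with ranges that nearly coincided. This gene (ENSMUSG00000000378, chromosome 11, 6546887 to 6596744, plus strand) had 56.7 to 65.4 TPM with α-asarone, with a median of 62.8, and 57.8 to 64.3 TPM in controls, with a median of 62.6. The means were 62.2 ± 3.08 and 62.0 ± 2.28 TPM (SD, n = 6 each), and the change was 2.85% with a 95% interval from −2.95% to 8.99% (edgeR adjusted p = 0.472). A processed pseudogene on the opposite strand, Gm11975, overlaps Ccm2, and whether the counting used strand is not known here.

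The levels of these complex partners were also set against each other within each library, which removes any scaling between libraries. The ratio of Krit1 to Ccm2 in TPM averaged 0.621 ± 0.048 in treated and 0.736 ± 0.024 in control libraries (SD, n = 6 each). The treated libraries ran from 0.552 to 0.690 and the controls from 0.696 to 0.769, so the groups did not overlap, though the gap was narrow. An exact 2-sided permutation test of the log2 ratio gave p = 0.00216, the smallest value that the 924 arrangements of 6 against 6 libraries allow. Krit1 was already known to separate the groups and Ccm2 to overlap when the ratio was taken. The ratio therefore restates the fall of Krit1, and its p-value, not adjusted for other genes, is no further support.

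**Figure D4:**
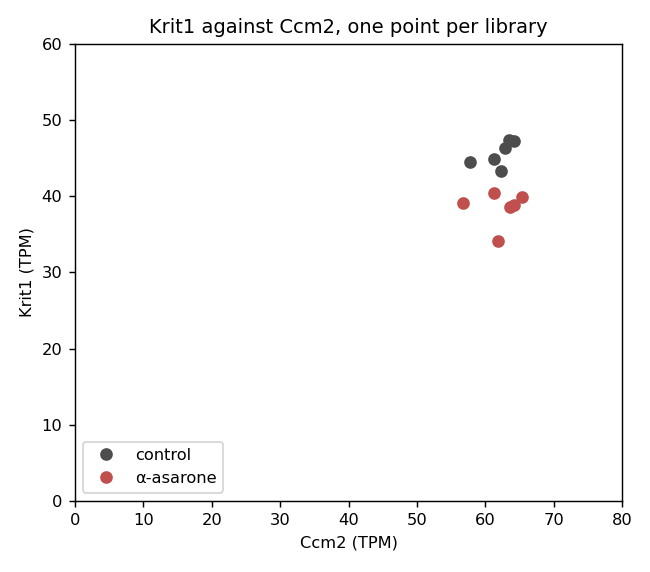
TPM of Krit1 against TPM of Ccm2, 1 point for each of the 6 control (dark grey) and 6 α-asarone (red) libraries, both axes from 0. The groups overlap for Ccm2, at 56.7 to 65.4 and 57.8 to 64.3 TPM, and the α-asarone libraries lie lower for Krit1, at 34.2 to 40.4 TPM.

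The table held 4 of the 20 genes listed for the CCM complex and its partners, and 2 of them, Klf4 and Krit1, were lower, beside 17.4% of all genes. The median log2 fold change of the 4 was −0.113, beside 0.001 over all 512 genes. Klf4, a zinc finger factor gene at the end of the MEK5 and ERK5 cascade, fell from 50.4 ± 1.97 to 40.8 ± 1.02 TPM (SD, n = 6; log2 fold change −0.31 ± 0.03 SE, edgeR adjusted p = 5.65e-09). Its controls ran from 47.3 to 53.2 TPM and its treated libraries from 39.4 to 42.4 TPM, with no overlap. Mapk7, which encodes ERK5, was at 21.5 ± 2.31 TPM against 21.1 ± 1.52 TPM in controls (SD, n = 6; edgeR adjusted p = 0.997). Pdcd10, the gene of the third CCM protein, and Klf2 were not analysed here.

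Efnb2 (ENSMUSG00000001300, chromosome 8, 8617434 to 8661242, minus strand) was slightly lower on average with α-asarone, with overlapping groups. Its level was 6.75 to 8.93 TPM with α-asarone, with a median of 7.90, and 7.84 to 8.98 TPM in controls, with a median of 8.53. The treated group held both the 3 lowest values and 1 near the top, and spread wider, with a coefficient of variation of 10.1% against 4.89%. The change was −8.31% with a 95% interval from −15.8% to −0.0937%. It did not pass edgeR's quasi-likelihood test over all genes (adjusted p = 0.122). Its mean transcript length was 4793 bases, that of the coding transcript Efnb2-201, in every library but the highest treated one, replicate 4, which had 4589 bases. The annotation places E230020D15Rik, Gm45074 and Gm45073 on the same strand within its span. Of 25 ephrin and Eph receptor genes 3 were in the table and 2 were tested, with none called. The other tested gene, Efna2, which encodes a membrane-anchored ligand of EphA receptors, was at 4.09 ± 0.839 against 4.63 ± 0.688 TPM (SD, n = 6 each; edgeR adjusted p = 0.247).

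Pdgfb (ENSMUSG00000000489, chromosome 15, 79995874 to 80014977, minus strand) was barely expressed. It had 1.45 to 1.89 TPM with α-asarone, with a median of 1.67, and 0.984 to 2.65 TPM in controls, with a median of 1.61, from 27 to 55 counts a library. The treated values lay inside the range of the controls. The change was 11.3% (edgeR adjusted p = 0.510), with a 95% interval from −12.8% to 42.1% that includes 0. The controls varied by 37.9% (coefficient of variation) where counting error alone gives 16%. Control replicates 3 and 6 had the same 55 counts but 2.65 and 2.06 TPM. The mean transcript length entered into TPM was 2156 bases in replicate 3 and 2944 bases in replicate 6, the latter being the length of the coding transcript Pdgfb-201. Control replicate 5 was also short, at 2334 bases, and the libraries other than replicates 3 and 5 were at 2943 to 2945 bases. With transcript lengths as an offset the log2 fold change was 0.015 in place of 0.155. An antisense gene, Gm41361, overlaps Pdgfb, and the receptor genes of this ligand were not analysed here.

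The order of the mean levels was the same in both groups, Ccm2 first, followed by Krit1, Ramp2, Efnb2 and Pdgfb. In controls no neighbours in that order overlapped in range. With α-asarone Ramp2 (33.6 to 41.2 TPM) reached the range of Krit1 (34.2 to 40.4 TPM). Krit1 was above Ramp2 in 6 of 6 controls and in 4 of 6 treated libraries.

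The rest of the adrenomedullin and calcitonin gene-related peptide axis could not be set beside Ramp2, as it was the 1 gene of 17 on that list in the table, and the receptor, ligand and other partner genes were not analysed here. Of a list of 25 VEGF and angiopoietin genes the table held 1, Angptl4, which is angiopoietin-like and itself neither a VEGF nor an angiopoietin gene. Its secreted product inhibits lipoprotein lipase and acts on vessel permeability. Angptl4 went from 10.7 to 13.6 TPM in controls to 29.5 to 35.2 TPM with α-asarone (log2 fold change 1.44 ± 0.06 SE, edgeR adjusted p = 1.31e-18). Of 24 Notch pathway genes 1 was tested, Ncstn, the gene of the γ-secretase subunit nicastrin. Its fall of 0.07 on the log2 scale, to 139 ± 4.08 from 146 ± 6.21 TPM (SD, n = 6), passed with edgeR (adjusted p = 0.0363), but 16 of 23 alternative settings ended the call.

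The deposited annotation gave vascular process terms (angiogenesis, vasculogenesis, blood vessel, vascular or endothelial terms) to 62 genes of the table, all 5 genes among them. Of the other 57, 45 were tested, 9 were higher, 14 were lower and 22 were not called, that is 51.1% called against 30.3% of all genes. With library totals over the table as the scaling, 14 of them were higher and 9 lower, so the balance of directions turned with the scaling. The typical change was small. The median log2 fold change was 0.000 and the median size of change 0.091, beside 0.001 and 0.083 over all 512 genes. The largest changes were of Cnn1, the smooth muscle calponin gene, with a log2 fold change of −1.71 and a treated level of 8.14 ± 1.13 TPM, of Angptl4, of Col18a1, the gene of the collagen that yields endostatin, with 0.52 and 49.7 ± 4.33 TPM, and of the bone collagen gene Col1a1, with −0.50 and 1304 ± 78.8 TPM (SD, n = 6 each).

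**Figure D5:**
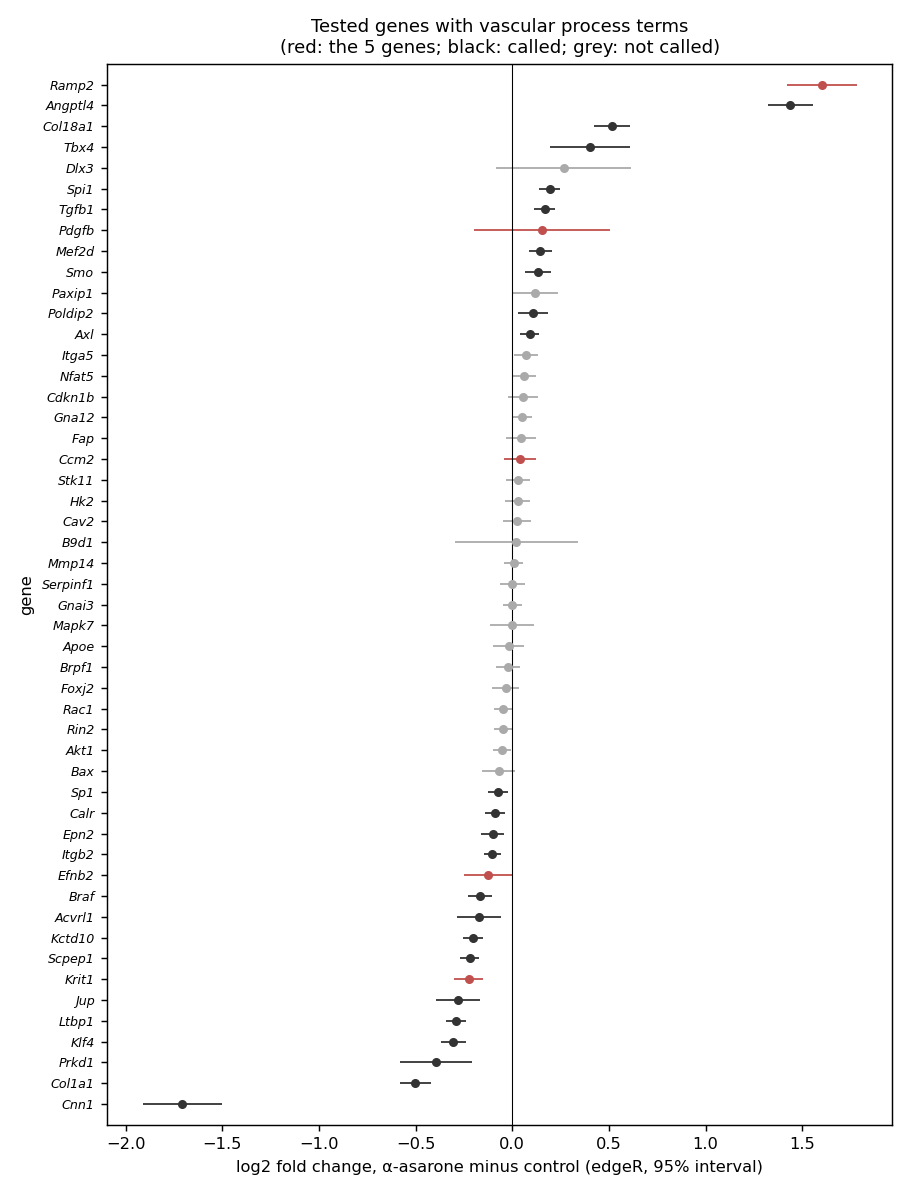
Log2 fold change (α-asarone minus control, edgeR, with 95% interval) of the 50 tested genes with vascular process terms, sorted. Ramp2 and Angptl4 stand at the top at 1.60 and 1.44, Cnn1 stands at the bottom at −1.71, and most genes lie close to 0.

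Terms shared by several of the 5 genes held calls in both directions or few genes. Their counts include Ramp2, chosen for its rise, and stand beside 30.3% of all 512 genes called, 66 higher and 89 lower. Angiogenesis was annotated to Ramp2, Efnb2 and Krit1, and of 12 tested genes with the term 4 were higher (Ramp2, Angptl4, Col18a1 and Tbx4) and 4 were lower (Krit1, Acvrl1, Kctd10 and Prkd1). Ramp2 and Krit1 also shared negative regulation of endothelial cell apoptosis, with Ramp2 and Angptl4 higher and Krit1 and Braf lower among 5 tested genes. Vasculogenesis, given to Ramp2 and Ccm2, had Ramp2, Smo and Tgfb1 higher and none lower among 6.

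Markers of endothelium, where Ramp2 is known to be abundant, were low. The table held 4 of 32 listed. Vwf was at 0.249 to 1.33 TPM, Esam at 0.334 to 1.16 TPM and Icam2, named here after its values were seen, at 0.082 to 2.47 TPM over all libraries. Acvrl1, a BMP receptor gene that other cells also express, was at 20.9 ± 0.951 TPM against 23.5 ± 2.32 TPM in controls (SD, n = 6; log2 fold change −0.17 ± 0.06 SE, edgeR adjusted p = 0.0195, a call lost in 6 of 23 alternatives). The summed level of the 4 was 21.9 to 24.0 TPM in treated and 24.0 to 30.3 TPM in control libraries, most of it from Acvrl1. The part of endothelial cells in the level of Ramp2 was not tested. None of the 15 megakaryocyte and platelet markers was in the table.

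Of the mural cell list 1 gene in 15, Cnn1, was in the table, at 6.82 to 9.97 TPM in treated and 21.8 to 30.3 TPM in control libraries. Some leukocyte markers were abundant. Of 21 listed, 7 were in the table, 2 of them (Cd3g and Vpreb3) at 0 in every library, and their sum was 967 to 1123 TPM in treated and 834 to 923 TPM in control libraries. Among 4 tested, Cfp (469 against 332 TPM on average) and Spi1 (163 against 143 TPM) were called higher with α-asarone. Itgb2 (273 against 293 TPM) was called lower. Calls in the marker lists stand beside 30.3% of all 512 genes called, 66 higher and 89 lower. For the labelled cell type 3 of 18 stromal markers were in the table, Col1a1, Col6a1 and Loxl3, with a sum of 2154 to 2430 TPM in treated and 2558 to 2953 TPM in control libraries. The lower sum came from Col1a1 (1304 against 1852 TPM on average), while Col6a1 and Loxl3 rose by 0.18 and 0.22 on the log2 scale (edgeR adjusted p = 5.10e-07 and 5.47e-08). The surface markers that define these cells were not analysed here. Of 16 osteoblast and osteocyte markers 4 were in the table and 2 were tested. Col1a1 was lower, none was higher and Sost was listed at 0 throughout. Their sum was 1211 to 1430 TPM in treated and 1722 to 2105 TPM in control libraries. Nearly all of it was Col1a1, at 1208 to 1428 TPM in treated and 1720 to 2103 TPM in control libraries. The lower sums of the stromal and osteoblast lists thus came from the same gene. In bulk samples fewer cells of a type and less RNA per cell cannot be told apart, and the part of cell makeup in the values of Ramp2 and Krit1 was not tested.

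Genes with the profile most like each of the 5 were found by the root mean square distance of log2(TPM + 1), centred on the control mean, over the 12 libraries. This distance includes the difference between the groups, for which Ramp2 was picked, so genes with large rises lie near it by construction. Nearest to Ramp2 were Angptl4 (distance 0.250), Egfl6 (0.314), Meox1 (0.470), Tspan33 (0.741) and Sult5a1 (0.747). Egfl6, a secreted matrix protein gene, went from 21.9 to 54.8 TPM on average. Nearest to Krit1 were Kctd10 (0.073), Scpep1 (0.076) and Luzp1 (0.077), each lower with α-asarone by 0.19 to 0.22 on the log2 scale. Ccm2 was nearest to Mmp14 (0.042), Capns1 (0.051) and Rtcb (0.051), none of them called. Efnb2 was nearest to Rps6ka1, Rtca and Ap2a2 (0.068 to 0.078), and Pdgfb to Snapin (0.189), Gtf2f1 (0.196) and Dvl3 (0.197). The distances for Pdgfb were larger than those for Krit1, Ccm2 and Efnb2 and smaller than those for Ramp2.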

How the data were processed

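For each library the authors deposited, in 1 table, TPM values and estimated counts of genes, named so per the file headers. The submitters' processing notes name the builds GRCm38 and mm10. No aligner or quantifier is named in the sources used here, nor whether counting used strand. The 658 genes held 5.36% to 5.67% of the TPM total, and their estimated counts summed to 843595 to 1224256 per library, which is not the depth of a library. Between 7.45% and 9.57% of a library's counts were more than 1e-06 from a whole number. All 658 identifiers matched GENCODE M21 (GRCm38).

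Counts were rounded and tested with edgeR 4.0.16 (glmQLFit, glmQLFTest; R 4.3.3) with TMM factors of 0.976 to 1.03 and no covariate, over the 512 genes with 1 TPM or more in 6 or more libraries, at a Benjamini-Hochberg adjusted p under 0.05. Standard errors are the fold change over the root of the F statistic. The genes, lists and tests were chosen with earlier results of these data known. On simulated counts for this comparison over 512 genes the test recovered 98% of genes changed 1.25-fold and 100% of those changed 1.5-fold, and 2.45% of its calls were false. The counts were drawn from the model that the test assumes, with the spread among these libraries. The rates therefore hold for that spread only, which may be technical. The 30 pairs of libraries within a group differed by 2.24 to 11.2 chi-square units per degree of freedom, so none was a copy.

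Transcript length was the count over TPM, scaled in each library by the slope on spliced length of 16 genes with 1 annotated transcript. The planned scaling by the median gene was kept as a comparison. Named genes were the 5 genes, Vps25, genes overlapping them, for each of 12 lists (226 genes, 31 in the table) and the annotation terms up to 4 called genes with the largest change or 2 with the highest TPM, endothelial markers below the filter, and the 5 genes nearest to Ramp2 and 3 nearest to each other gene. Genes near Ramp2 on the chromosome and in shared terms fall outside this rule and were named after their values were seen, as were Icam2, Mapk7, Cd3g and Vpreb3. Alternatives were other scaling factors, filters and pseudocounts, limma 3.58.1, DESeq2 1.42.0, transcript length offsets, a replicate block and each library left out. No promoter of Ramp2 or Pdgfb and no protein sequence was used here.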

Additional observations from a re-analysis of the deposited data

Results flagged for a closer look

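Over 94 sets of 6 values, the gap of the extreme library to the next was set against Dixon's 95% limit. It exceeded the limit in 6, where chance gives about 4.7. In α-asarone replicate 5 the level of Krit1 was 34.15 TPM, and the other treated libraries were between 38.64 and 40.45 TPM. Control replicate 2 had a total estimated count of 843600 (others 1069000 to 1174000), and with it fewer counts of Efnb2, 279 against 362 to 391, and of Krit1, 890 against 1173 to 1316. In TPM, which is scaled by library, that library had 8.43 for Efnb2, inside the range of the other controls, and 43.4 for Krit1, the lowest control. Efna2 was 5.714 TPM in α-asarone replicate 4 (others 3.36 to 4.128) and 3.328 TPM in control replicate 2 (others 4.655 to 5.383).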

How the results depend on the processing

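Called genes numbered 116 to 189 over the alternatives, against 155, and 138 to 152 with each library left out. The calls of Krit1 and the absence of a call for Efnb2, Pdgfb and Ccm2 held in every alternative run, with log2 fold changes of −0.244 to −0.183 for Krit1, −0.153 to −0.074 for Efnb2, 0.002 to 0.27 for Pdgfb and 0.004 to 0.083 for Ccm2. With a minimum of 5 TPM Pdgfb was not tested. Ramp2 was between 1.54 and 1.68 with each library left out and 1.341 with log2(TPM + 5), which compresses low values by construction. The mean transcript length of Ramp2 with α-asarone over that in controls was 0.970 with the planned scaling, 0.961 in bases (added after seeing the data) and 0.962 to 0.980 with each library left out. The count of other called vascular-term genes was 20 to 25 against 23, with 14 higher and 9 lower under table totals in place of 9 and 14. Uncalled genes near 0 changed sign without being called. Under table totals Snapin was 0.018, Capns1 0.017 and Rtcb 0.025. With each library left out Snapin ranged from −0.049 to 0.005, at 0.002 without α-asarone replicate 3 and 0.005 without control replicate 3, and Mmp14 was −0.003 without α-asarone replicate 4 or control replicate 4. Calls changed in some settings for Ncstn, Rtca, Acvrl1, Ap2a2, Itgb2, Dvl3 and Rps6ka1, and the cause was not tested. Deviations of same-numbered libraries correlated at −0.003 to 0.128, and 2 of 6 treated libraries were closest to their own number. With the replicate block 168 genes were called, and Krit1 was −0.226 and Ramp2 1.608.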
